A study of Dendroctonus valens with 12 samples.

Results

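Larvae and adults of the red turpentine beetle, Dendroctonus valens, collected in May were compared with each other. The comparison used 3 larvae and 3 adults, which are 6 of the 12 libraries of the study. The sample records describe the larvae as whole mature larvae and the adults as whole adults, both with the isolate name "normal", against the name "cold" on the 6 January libraries. Per the study's methods, each library held the poly(A) RNA of 1 wild insect from the field, and the larvae were of a late instar. The adults' age and the sex of any insect are not given in the sources used here. Levels were read on unigenes, the gene models of an assembly made from the reads themselves. Of 58956 unigenes, 14196 reached 1 FPKM (fragments for each kilobase of a unigene, relative to all fragments mapped in that library) in at least 3 of the 6 libraries and were tested. A set of 4823 unigenes was left out first, because they reached 1 FPKM in May larva 1 and January larva 3 and were under 0.1 FPKM in all other larvae.

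A bark beetle passes its larval life under the bark, where it bores through phloem, grows and moults within a soft cuticle. The study states that adults of this species feed on phloem too. The adult has a hardened body wall, wings with flight muscle, compound eyes and antennae tuned to tree and mate odours, and it reproduces. Phloem is rich in sugar bound in cell walls, and the resin of pines holds terpenes that are toxic to insects. Cell wall hydrolases, detoxifying enzymes, cuticle proteins, and genes of muscle, nerve and senses were therefore followed here, beside those of growth and metabolism. A library of a whole insect mixes all tissues, so that fewer cells of a type and less RNA per cell cannot be told apart.

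The libraries differed in more than stage. The 3 larvae had 16681, 8291 and 8428 unigenes at 1 FPKM or more, against 21310, 21622 and 16595 in the 3 adults (exact permutation test, two-sided, p = 0.2, where the smallest p for 3 against 3 is 0.1). The 20 most abundant unigenes took 33.7% to 63.63% of the FPKM of a library. Larva 1 stood apart from the others. Its Spearman correlations with larvae 2 and 3 were 0.535 and 0.516, against 0.892 between those 2 larvae and 0.801 to 0.839 among the adults. The set left out made up 4.072% of larva 1, 0% of larvae 2 and 3, and 0.148% to 1.148% of the adults. To compare levels, FPKM were divided by a factor for each library, the median of its ratios to the geometric mean over the 9320 unigenes above 0 in all 6 libraries. The factors were 0.509, 0.748 and 0.624 for the larvae and 1.434, 1.899 and 1.545 for the adults. The quotients are called scaled FPKM below, and library values are given in the order of replicates 1, 2 and 3. The scaling bears on every direction given here. It put the median log2 fold change over all unigenes tested at -0.24, against -1.15 on FPKM as deposited and -1.53 with libraries set to an equal sum without their 20 most abundant unigenes.

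The stage labels were checked against markers. Larval cuticle protein LCP-17 (TRINITY_DN12641_c0_g1) had 390.1, 171 and 874 scaled FPKM in larvae, against 5.0, 4.16 and 9.36 in adults. The 2 larval markers summed to 127.59 to 544.89 FPKM in the larvae, against 8.4 to 15.57 in the adults, without overlap, and to 171 to 874 scaled FPKM in the larvae, against 4.42 to 10.1 in the adults. These sums rest almost wholly on LCP-17. The second larval marker, larval cuticle protein 8-like (TRINITY_DN20921_c0_g5), had 0.66, 0 and 0 FPKM in larvae, against 1.73, 0.5 and 1.11 in adults. It was under the filter and was not tested. The 11 adult markers summed to 5.46 to 12.97 FPKM in the larvae, against 15.05 to 48.15 in the adults, but in scaled FPKM the groups overlapped, at 20.7, 17.3 and 8.75 in larvae, against 10.5, 25.4 and 18.7 in adults. Only 3 of the 11 passed the filter on low values and none of the 3 passed the test (limma). Adult-specific rigid cuticular protein 15.7 was listed at 0 in all 3 larvae and at 0, 0 and 0.36 FPKM in the adults. Of the adult markers 5 were listed at 0 in every larva and none in every adult. The larval label thus had a strongly expressed marker behind it, while the adult markers did not separate the stages.

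Between the stages, 1686 unigenes (11.9% of 14196) were higher in larvae and 1953 (13.8%) lower, at an adjusted p under 0.01 with a log2 fold change of at least 1 in size (limma on log2(scaled FPKM + 1), two-sided, Benjamini-Hochberg adjustment). The added 1 draws the fold changes of low unigenes toward 0. The unigenes tested still included many that were read in larva 1 and listed at 0 in larvae 2 and 3. The number tested was 12358 without larva 1, against 13888 without larva 2 and 13907 without larva 3. TRINITY_DN10833_c0_g1, for example, had 3251, 0 and 0 scaled FPKM in larvae, against 12.5, 34.4 and 2.91 in adults, and did not pass the test. Such unigenes count in the shares over all unigenes tested, and their organism is not known here. Where they do not pass the test, they lower these shares, beside which the lists below are set. Larval and adult values did not overlap for 3190 unigenes (22.5%) with larvae above adults and 4952 (34.9%) with larvae below. The balance of the calls moved with the scaling. On FPKM as deposited 778 unigenes (5.48%) were called higher and 4675 (32.9%) lower, with the equal sum 540 (3.8%) and 6050 (42.6%), and with factors from unigenes matched to D. ponderosae 1446 (10.2%) and 2512 (17.7%). Of the 3639 unigenes called, 3624 kept their direction on FPKM as deposited and 3456 with the equal sum. The numbers also rested on single insects. Without larva 1, 1380 were called higher and 1527 lower, without larva 2 1168 and 603, without larva 3 1194 and 747, without adult 1 703 and 407, and without adult 2 649 and 319. Without adult 3, 13 were called higher and 0 lower by limma, with 3814 of 10764 at an unadjusted p under 0.05, and 1233 and 809 at an adjusted p under 0.05. Of the 3639 unigenes called, 2245 were still tested without adult 3, so that part of the calls was lost to the filter. All 2245 kept their direction and 2206 a log2 fold change of at least 1 in size. Among these 2245 the loss was thus in the adjusted p. They were called on the same libraries that this fit uses, so that a kept direction is no independent test. In the same way, 66 of the 83 called unigenes named below were still tested without adult 3, and 3 of them kept an adjusted p under 0.01. Without adult 1, 55 of the 66 kept it, and without adult 2, 49.

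**Figure D1:**
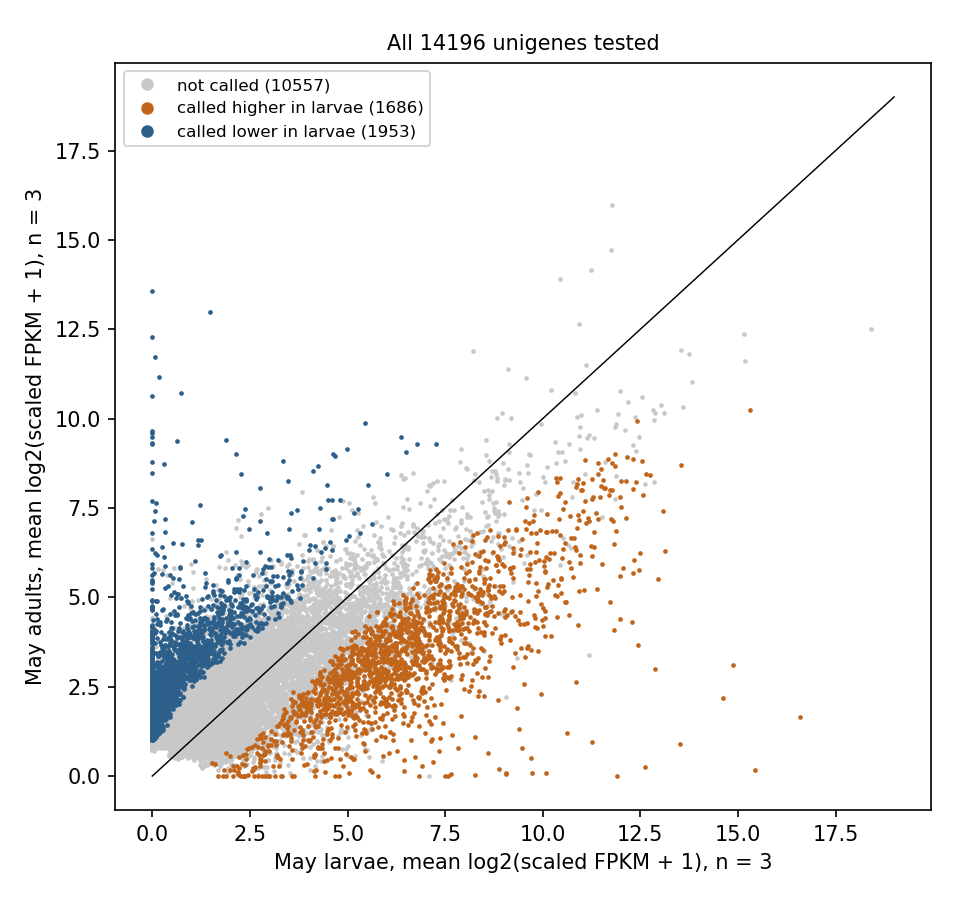
Mean log2(scaled FPKM + 1) of the 14196 unigenes tested, with the 3 May larvae on the horizontal and the 3 May adults on the vertical axis, where each point is a unigene and the line marks equal means. The 1686 unigenes called higher in larvae lie below the line, the 1953 called lower above it, and the others between and around them.

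**Figure D2:**
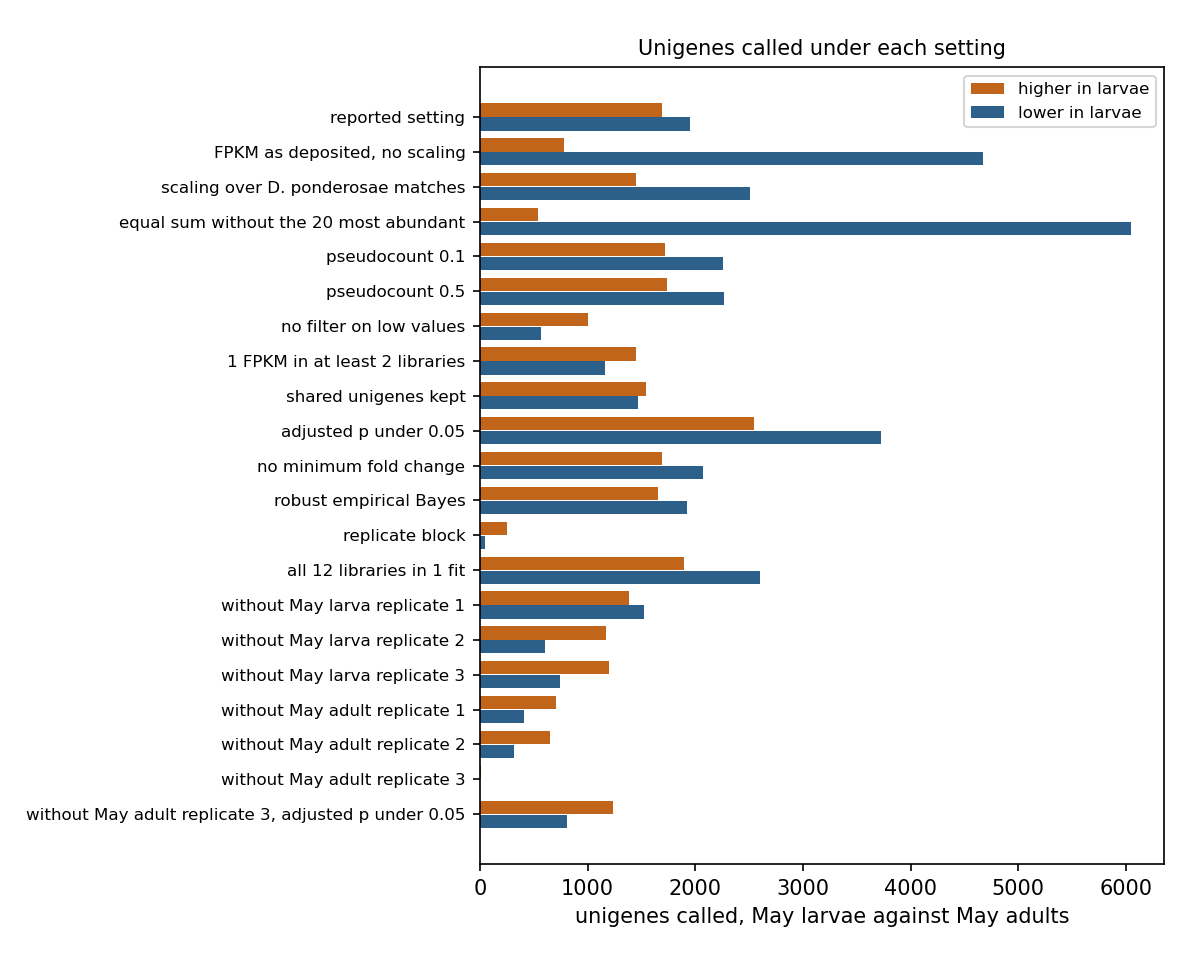
Number of unigenes called higher (upper bar of each pair) and lower (lower bar) in May larvae against May adults under the reported setting and each alternative. Fewer calls higher than lower were made on FPKM as deposited (778 and 4675), and almost none without May adult replicate 3 (13 and 0).

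The most abundant unigenes of either stage had no named match in the tables used. In larvae the highest mean belonged to TRINITY_DN19147_c0_g1, with 296319, 172415 and 817507 scaled FPKM in larvae, against 16718, 1784 and 6466 in adults. TRINITY_DN24926_c0_g1 had 28018, 7328 and 248712 scaled FPKM in larvae, against 6958, 1241 and 3636 in adults. For both, every larva lay above every adult, but larvae varied so much among themselves that neither passed the test (log2 fold changes 5.91 ± 1.92 and 3.56 ± 1.59, SE, adjusted p = 0.0475 and 0.119). TRINITY_DN20229_c0_g1 had 115160.3, 176256 and 48149.7 scaled FPKM in larvae, against 2.63, 0.921 and 3.38 in adults (log2 fold change 14.95 ± 0.60, adjusted p = 0.000271). TRINITY_DN18275_c0_g1 had 51972, 33565 and 50254 scaled FPKM in larvae, against 0, 0 and 0.427 in adults (log2 fold change 15.27 ± 0.29, adjusted p = 3.79e-05). These 2 unigenes were among the most abundant transcripts of each larva and almost unread in adults. TRINITY_DN19694_c0_g1 had 56988, 23108 and 50027 scaled FPKM in larvae, against 1865, 751 and 1279 in adults (log2 fold change 5.05 ± 0.81, adjusted p = 0.00498), and so was high in larvae without being absent from adults. In adults, TRINITY_DN22834_c1_g1 had 0, 0 and 0 scaled FPKM in larvae, against 16799, 4799.5 and 22631 in adults (adjusted p = 0.000406). It was listed at 0 in every larva, so that no fold change is given. It was also the only one of the 5 most abundant adult unigenes that passed the test. The other 4, TRINITY_DN19707_c2_g1, TRINITY_DN23862_c2_g1, TRINITY_DN23862_c3_g1 and TRINITY_DN20384_c1_g1, had every adult above every larva, log2 fold changes of -4.20, -2.96, -2.92 and -3.47, and adjusted p of 0.0312, 0.0573, 0.0278 and 0.0186. On FPKM as deposited all 4 were called lower in larvae. Where a stage is at or near 0, as in adults for the first 2 called unigenes, the size of a log2 fold change depends on the added 1.

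The study designed PCR primers for 15 unigenes of this assembly, and 6 of these differed between the stages, beside 25.6% of all unigenes tested called in either direction. No longer stretch of these unigenes was used here, and the primers are printed so that the unigenes can be found in another assembly. All run 5′ to 3′, in lower case because no part of them was singled out.
TRINITY_DN20229_c0_g1 forward: tgcagtggagattggagcag
TRINITY_DN20229_c0_g1 reverse: tgttgacgccattagccact
TRINITY_DN22439_c0_g5 forward: ctgcggaaatcgaatctggc
TRINITY_DN22439_c0_g5 reverse: gtcttggggagttgggacag
TRINITY_DN27539_c3_g1 forward: attgcatcctggggttggag
TRINITY_DN27539_c3_g1 reverse: cgtagtagctggtgccgtag
TRINITY_DN19691_c0_g1 forward: acgccactgacctggaaaat
TRINITY_DN19691_c0_g1 reverse: tcccagatgttgattgcgct
TRINITY_DN21780_c1_g1 forward: tggccgaacagaccaaagtt
TRINITY_DN21780_c1_g1 reverse: atgagcaaagccaccgtgta
TRINITY_DN27207_c0_g1 forward: gcaatgaataagctgggcgg
TRINITY_DN27207_c0_g1 reverse: agatcatcagcgtgtgccaa

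The study chose its PCR unigenes for differences between January and May on these same libraries, and its account of that choice does not name TRINITY_DN27539_c3_g1. TRINITY_DN20229_c0_g1 is the larval unigene described above. TRINITY_DN22439_c0_g5 had 7361, 1623 and 5601 scaled FPKM in larvae, against 35.2, 14.8 and 14.9 in adults (log2 fold change 7.60 ± 0.68, adjusted p = 0.00124). TRINITY_DN27539_c3_g1 had 127, 89.7 and 210.0 scaled FPKM in larvae, against 8.73, 5.91 and 13.2 in adults (log2 fold change 3.77 ± 0.42, adjusted p = 0.00193). Neither has a named match here, and in both every larva exceeded every adult. TRINITY_DN27207_c0_g1, which the study's text calls a putative glutamate synthase, an enzyme that makes glutamate, was lower in larvae, with 3.58, 3.81 and 2.65 scaled FPKM in larvae, against 32.2, 45.7 and 31.8 in adults (log2 fold change -3.10 ± 0.27, adjusted p = 0.00117). Acyl-CoA desaturase (TRINITY_DN19691_c0_g1) and fructose-1,6-bisphosphatase (TRINITY_DN21780_c1_g1) are given with lipid and sugar metabolism below. The remaining 9 primer unigenes did not pass the test. Among them, glyceraldehyde-3-phosphate dehydrogenase 2 (TRINITY_DN22610_c0_g2), an enzyme of glycolysis, had 539.8, 398 and 785 scaled FPKM in larvae, against 344, 370.0 and 449.6 in adults, with overlapping groups (log2 fold change 0.52 ± 0.34). With the equal sum its sign turned and it was called lower in larvae (log2 fold change -1.47).

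The gene lists used from here on hold only unigenes with a beetle as best match. Of the 1442 such unigenes tested, 258 were called higher in larvae and 173 lower. This is a larger share higher, and a smaller share lower, than over all unigenes tested. The shares over all unigenes, set beside each list, thus overstate how far a list stands out upward. Genes of the cuticle and of the chitin-lined gut included the largest rise in larvae among unigenes with a named match. TRINITY_DN22828_c3_g1, whose best match is called flocculation protein FLO11-like and which carries a chitin-binding domain, had 2288, 1264 and 5019 scaled FPKM in larvae, against 2.31, 0.453 and 0.537 in adults (log2 fold change 10.29 ± 0.60, adjusted p = 0.000785). Larval cuticle protein LCP-17, a structural protein of the soft larval body wall whose values are given above, was also higher in larvae (log2 fold change 5.83 ± 0.64, adjusted p = 0.00185). Peritrophin-1 (TRINITY_DN24281_c0_g1), a protein of the chitinous membrane that lines the midgut, had 1273, 1054 and 2264 scaled FPKM in larvae, against 188, 20.6 and 79.9 in adults (log2 fold change 4.39 ± 0.83, adjusted p = 0.0081). All larvae exceeded all adults in these 3 unigenes, and adult 1 was the highest adult in peritrophin-1. TRINITY_DN21051_c0_g1, a member without a named match, was lower in larvae, with 0, 0.134 and 0 scaled FPKM in larvae, against 6.32, 5.41 and 6.96 in adults (log2 fold change -2.79 ± 0.27, adjusted p = 0.00142). Of the 8 members tested among 11, these 3 were thus higher (37.5%, against 11.9% overall) and 1 lower (12.5%, against 13.8%), and the other 4 had log2 fold changes of -2.08 to 1.09 and did not pass the test. A chitin-cutting beta-N-acetylglucosaminidase (TRINITY_DN20829_c0_g1), higher in larvae (log2 fold change 6.67) and described further below, is not in this list. The counts thus describe the list and not all chitin genes. The list's median was 0.32, which is 0.56 above that of all unigenes tested. On FPKM as deposited 2 were called higher and 1 lower. Peritrophin-1 was not called then, nor without larva 1, nor with the equal sum. Without adult 3 none of 7 was called at 0.01 and 3 were higher at an adjusted p under 0.05.

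**Figure D3:**
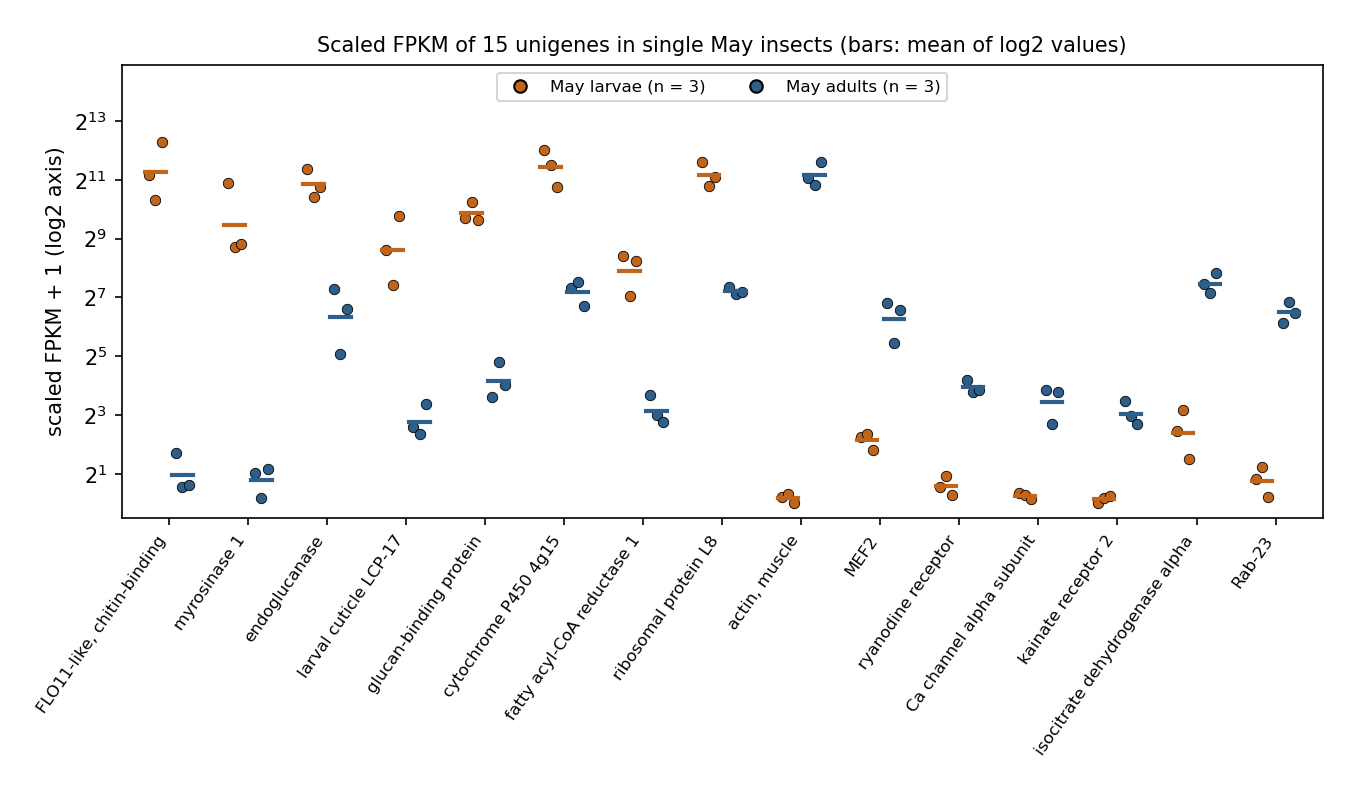
Scaled FPKM + 1 on a log2 axis for 15 named unigenes in the 3 May larvae (left of each pair) and the 3 May adults (right of each pair), where each point is an insect and each bar the mean of the log2 values. In all 15 the larval and adult points do not overlap, and muscle actin spans the widest gap, from 0 to 0.241 scaled FPKM in larvae against 1794 or more in adults.

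Enzymes that break down plant cell walls and sugars were higher in larvae in 10 of 26 members tested (38.5%, against 11.9% over all unigenes) and lower in none, with 17 higher and 0 lower at an unadjusted p under 0.05. Myrosinase 1 is the name of several matches to a family of beta-glucosidases, which cut glucose from plant glycosides. The myrosinase TRINITY_DN22028_c0_g1 had 1890.4, 416 and 447 scaled FPKM in larvae, against 1.02, 0.126 and 1.26 in adults (log2 fold change 8.68 ± 0.66, adjusted p = 0.000979). TRINITY_DN22028_c0_g3, from the same assembly cluster, had 165, 39.9 and 255 scaled FPKM in larvae, against 0.279, 0.126 and 0.272 in adults (log2 fold change 6.62 ± 0.69, adjusted p = 0.00167). Both were high in every larva and near 0 in every adult, and reads may have been divided between them. Endoglucanase (TRINITY_DN22700_c3_g2), which cuts cellulose within its chain, had 2668, 1373 and 1745 scaled FPKM in larvae, against 154, 33.1 and 95.3 in adults (log2 fold change 4.54 ± 0.62, adjusted p = 0.00317). A beta-galactosidase (TRINITY_DN24586_c0_g3), which removes galactose from sugar chains, had 78.0, 63.2 and 109 scaled FPKM in larvae, against 5.42, 1.63 and 3.22 in adults (log2 fold change 4.31 ± 0.41, adjusted p = 0.0014). For these 2 enzymes adult 2 was the lowest adult, and no adult reached any larva. The 6 other called members were chosen for naming after their values were seen. They are 2 further myrosinases, a further beta-galactosidase, maltase 2, endopolygalacturonase A and sucrose-6-phosphate hydrolase, and their log2 fold changes were 2.26 to 4.20. The 16 members that did not pass had log2 fold changes of -1.63 to 3.45. The median of the 26 was 2.44, which is 2.69 above that of all unigenes tested, and it stayed 2.05 to 2.59 above under the other scalings. On FPKM as deposited 7 were called higher and none lower, and with the equal sum 6 higher and 1 lower. Without larva 1, 7 were called higher and 1 lower, and without adult 3 none at 0.01 and 9 higher at an adjusted p under 0.05.

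Of the 26 proteases tested among 30, 3 were higher in larvae (11.5%) and 2 lower (7.69%), against 11.9% higher and 13.8% lower over all unigenes tested, so that neither share of calls exceeded the background. At an unadjusted p under 0.05 (limma), 9 were higher and 4 lower. The unigene matched to venom serine carboxypeptidase (TRINITY_DN20643_c0_g1), an enzyme that trims peptides from their carboxyl end, had 561, 553 and 1037 scaled FPKM in larvae, against 60.5, 15.7 and 35.9 in adults (log2 fold change 4.35 ± 0.55, adjusted p = 0.00252). Serine protease Hayan-like (TRINITY_DN26906_c0_g1), in Drosophila a protease of the melanization cascade, had 17.4, 23.3 and 56.5 scaled FPKM in larvae, against 4.36, 2.68 and 2.8 in adults (log2 fold change 2.81 ± 0.48, adjusted p = 0.00611). Carboxypeptidase Q (TRINITY_DN23444_c0_g1) had 116, 85.5 and 73.2 scaled FPKM in larvae, against 24.7, 17.0 and 32.1 in adults (log2 fold change 1.87 ± 0.31, adjusted p = 0.00572). In each of the 3 no adult reached the lowest larva. Aminopeptidase N-like (TRINITY_DN23116_c1_g1), a membrane peptidase of the midgut brush border, was lower in larvae, with 0.648, 1.16 and 1.89 scaled FPKM in larvae, against 13.3, 6.50 and 6.78 in adults (log2 fold change -2.11 ± 0.42, adjusted p = 0.00971). The 21 members that did not pass included the cathepsins, trypsins and digestive cysteine proteinases, at log2 fold changes of -1.27 to 2.24. The list's median was 1.05, which is 1.30 above that of all unigenes tested. The counts turned with the scaling, to 1 higher and 5 lower on FPKM as deposited and 1 and 6 with the equal sum, where carboxypeptidase Q changed sign (log2 fold change -0.07). Without larva 1, 2 were higher and 1 lower, with carboxypeptidase Q and aminopeptidase N-like no longer called. Without adult 3, none was called at 0.01, and 2 were higher and 2 lower at an adjusted p under 0.05.

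Detoxifying enzymes and pumps were higher in larvae in 7 of 25 members tested (28%, against 11.9% overall) and lower in none, with 2 lower at an unadjusted p under 0.05. UDP-glucuronosyltransferase 1-7C (TRINITY_DN24570_c0_g1), of a family that couples sugars to foreign compounds, had 399.6, 259.6 and 413 scaled FPKM in larvae, against 9.75, 3.80 and 5.07 in adults (log2 fold change 5.69 ± 0.38, adjusted p = 0.000813). Cytochrome P450 4g15 (TRINITY_DN22103_c0_g1) had 4132, 2872 and 1738 scaled FPKM in larvae, against 159.6, 184 and 104 in adults (log2 fold change 4.23 ± 0.44, adjusted p = 0.00167). Enzymes of the CYP4G family make the hydrocarbons of the insect cuticle, so that its place among detoxifying enzymes rests on its family name. Esterase FE4 (TRINITY_DN21206_c0_g1) had 173, 145 and 373 scaled FPKM in larvae, against 25.8, 6.4 and 14.7 in adults (log2 fold change 3.86 ± 0.59, adjusted p = 0.00431). The unigene matched to liver carboxylesterase (TRINITY_DN23609_c0_g4) had 92.8, 63.3 and 54.4 scaled FPKM in larvae, against 7.41, 3.77 and 5.96 in adults (log2 fold change 3.41 ± 0.33, adjusted p = 0.00142). In all 4 the lowest larva lay above the highest adult, and P450 4g15 was the most abundant of them in both stages. The carboxylesterase has 4 further unigenes of its assembly cluster in the list, none of which passed the test, and reads may have been divided among them. The members that did not pass had log2 fold changes of -2.00 to 5.0. The median of the 25 was 1.89, which is 2.13 above that of all unigenes tested and 1.71 to 2.07 above under the other scalings. Without scaling 5 were called higher and 2 lower, and with the equal sum 3 and 3. Without larva 1, 8 were called higher, and without adult 3 none at 0.01 and 7 higher at an adjusted p under 0.05.

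Lipid metabolism held 5 members higher (25%, against 11.9% overall) and 1 lower (5%, against 13.8%) in larvae among 20 tested. Fatty acyl-CoA reductase 1 (TRINITY_DN24239_c0_g1), which makes the fatty alcohols of waxes, had 338, 129.7 and 298 scaled FPKM in larvae, against 11.7, 7.09 and 5.75 in adults (log2 fold change 4.74 ± 0.45, adjusted p = 0.00142). An elongase of very long chain fatty acids (TRINITY_DN23125_c0_g1) had 146, 233 and 214 scaled FPKM in larvae, against 9.68, 5.21 and 7.68 in adults (log2 fold change 4.55 ± 0.31, adjusted p = 0.000835). Acyl-CoA desaturase (TRINITY_DN19691_c0_g1), which puts double bonds into fatty acids, had 832, 459.9 and 528 scaled FPKM in larvae, against 52.2, 53.6 and 44.5 in adults (log2 fold change 3.53 ± 0.29, adjusted p = 0.00109). These 3 enzymes act on the same chains, by reduction, lengthening and desaturation, and in each the larvae stood well clear of the adults. An acyl-CoA synthetase (TRINITY_DN25664_c0_g3), which activates fatty acids, had 23.6, 17.2 and 9.67 scaled FPKM in larvae, against 2.16, 1.15 and 0.88 in adults (log2 fold change 2.85 ± 0.43, adjusted p = 0.00422). The single called member that was lower, named after its value was seen, is 3-hydroxy-3-methylglutaryl-coenzyme A reductase, at -2.42, the enzyme that sets the rate of isoprenoid synthesis and, in bark beetles, of terpenoid pheromones. The list's median of 1.09 was 1.33 above that of all unigenes tested. Without scaling 3 were called higher and 1 lower, with the equal sum 3 and 4, and without larva 1 5 and 1. Without adult 3 none was called at 0.01, and 5 were higher and 1 lower at an adjusted p under 0.05.

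Sugar and energy metabolism moved both ways, with 5 members higher and 5 lower in larvae among 24 tested, which is 20.8% each way beside 11.9% and 13.8% overall. The mitochondrial isocitrate dehydrogenase subunit alpha (TRINITY_DN21233_c1_g1), an enzyme of the citric acid cycle, was lower in larvae, with 4.54, 8.01 and 1.81 scaled FPKM in larvae, against 174, 139 and 226 in adults (log2 fold change -5.09 ± 0.47, adjusted p = 0.00131). A Tret1-like transporter (TRINITY_DN21956_c0_g7), which carries trehalose, the blood sugar of insects, across membranes, had 86.3, 16.5 and 54.9 scaled FPKM in larvae, against 2.40, 0.763 and 1.06 in adults (log2 fold change 4.25 ± 0.65, adjusted p = 0.00444). Its relative Tret1 (TRINITY_DN23651_c0_g1) had 116, 40.9 and 52.0 scaled FPKM in larvae, against 2.62, 1.89 and 4.59 in adults (log2 fold change 4.04 ± 0.48, adjusted p = 0.00223). Larvae were above adults in both transporters, and larva 2 was the lowest larva in each. 6-phosphogluconate dehydrogenase (TRINITY_DN22402_c0_g1), of the pathway that yields NADPH from glucose, had 345, 251 and 324 scaled FPKM in larvae, against 18.3, 23.5 and 17.7 in adults (log2 fold change 3.88 ± 0.23, adjusted p = 0.000785). Fructose-1,6-bisphosphatase (TRINITY_DN21780_c1_g1), an enzyme of glucose synthesis and one of the primer unigenes, had 273, 164 and 147 scaled FPKM in larvae, against 49.8, 42.9 and 43.1 in adults (log2 fold change 2.03 ± 0.29, adjusted p = 0.00363), and it was not called on FPKM as deposited or with the equal sum. Trehalase, which splits trehalose, was the second largest of the lower members, named after its value was seen, at -3.26. Of the trehalose transporters in the list, 3 were higher and 1 lower, and the other 7 did not pass. The median of the 24 was 0.74, which is 0.98 above that of all unigenes tested. Without scaling 3 were called higher and 8 lower, with the equal sum 3 and 10, and without larva 1 4 and 3. Without adult 3 none of 22 was called at 0.01, and 3 were higher and 5 lower at an adjusted p under 0.05.

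Of the respiratory chain, 2 of 11 members tested were lower in larvae (18.2%, near the 13.8% over all unigenes) and none higher, with 3 higher at an unadjusted p under 0.05. Both belong to complex I, which passes electrons from NADH into the chain. Its subunit 12 of the alpha subcomplex (TRINITY_DN22443_c2_g2) had 8.88, 9.45 and 6.86 scaled FPKM in larvae, against 54.8, 78.1 and 65.0 in adults (log2 fold change -2.83 ± 0.24, adjusted p = 0.00114). Its iron-sulfur protein 2 (TRINITY_DN23283_c2_g1) had 23, 28.3 and 18.9 scaled FPKM in larvae, against 61.9, 102 and 80.9 in adults (log2 fold change -1.75 ± 0.28, adjusted p = 0.00478), and without larva 1 it was no longer called. ATP synthase subunit alpha (TRINITY_DN18757_c0_g2), with primers in the study, had 1676, 1108 and 1138 scaled FPKM in larvae, against 485, 890.3 and 618 in adults and did not pass (adjusted p = 0.0839). The list's median lay 0.52 above that of all unigenes on the reported scale, 0.06 above on FPKM as deposited and, with the equal sum, at a difference of -0.17. The counts were 0 higher and 3 lower on FPKM as deposited, 0 and 5 with the equal sum and 0 and 1 without larva 1. Without adult 3 none of 10 was called at 0.01 and 2 were lower at an adjusted p under 0.05. For 2 transcripts of the mitochondrial genome, named after their values were seen, 5 of the 6 May libraries, larvae and adults, are listed at or near 0. Cytochrome b (TRINITY_DN20349_c0_g2) had 2761.82, 0 and 0 FPKM in May larvae, against 0, 2.82 and 6.94 in May adults. In January it had 5506.72, 5673.9 and 10034.12 FPKM in larvae, against 4141.04, 6574.71 and 6475.64 in adults. Cytochrome oxidase subunit I (TRINITY_DN20652_c0_g1) had 3173.07, 0.49 and 0 FPKM in May larvae, against 0.32, 0 and 0 in May adults. In January it had 6575.64, 7421.7 and 9855.18 FPKM in larvae, against 2337.52, 2213.56 and 5312.14 in adults. May larva 1 was thus like all 6 January libraries in being high, and the other 5 May libraries were at or near 0 for genes that every cell uses. A listed 0 without counts can be a failed estimate, and the cause was not tested, so no stage difference is read from these transcripts. Cytochrome b is nonetheless among the 11 members tested, with the list's highest log2 fold change (2.88 ± 3.47, SE). The list's number tested and its median on the reported scale thus include it.

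Ribosomal proteins and translation factors were higher in larvae in 10 of 26 members tested (38.5%, against 11.9% overall) and lower in none, with 4 lower at an unadjusted p under 0.05. The ribosomal proteins of the large subunit L8 (TRINITY_DN19274_c1_g3), L23a (TRINITY_DN20985_c0_g1) and L13 (TRINITY_DN23156_c0_g10) came first by the size of the change. L8 had 3101, 1778 and 2201 scaled FPKM in larvae, against 164, 138 and 144 in adults (log2 fold change 3.94 ± 0.32, adjusted p = 0.00108). L23a had 4123, 3127 and 2849.6 scaled FPKM in larvae, against 273, 215 and 213 in adults (log2 fold change 3.83 ± 0.33, adjusted p = 0.00115). L13 had 2147, 1598 and 1362 scaled FPKM in larvae, against 178, 160.0 and 127 in adults (log2 fold change 3.44 ± 0.31, adjusted p = 0.00127). In all 3 the 3 adults lay close together and the lowest larva was far above them. Nucleolar protein 16 (TRINITY_DN18246_c0_g1), which acts in the assembly of the large subunit, had 143, 129 and 118 scaled FPKM in larvae, against 13.8, 9.37 and 12.2 in adults (log2 fold change 3.37 ± 0.22, adjusted p = 0.000813). The members that did not pass were mostly tRNA ligases and proteins of the mitochondrial ribosome, with log2 fold changes of -1.69 to 2.08. The median of the 26 was 1.03, which is 1.28 above that of all unigenes tested and 0.90 to 1.22 above under the other scalings, but its own sign turned to -0.12 on FPKM as deposited. There 5 were called higher and 5 lower, and with the equal sum 5 and 8. The count was 10 and 0 without larva 1, and without adult 3 none was called at 0.01 and 8 were higher at an adjusted p under 0.05.

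Chaperones and folding enzymes were higher in 4 of 12 members tested (33.3%, against 11.9% overall) and lower in 1 (8.33%, against 13.8%). Heat shock protein 70 A1-like (TRINITY_DN26176_c0_g3), a chaperone induced by heat and other stress, had 2831, 2806 and 5153 scaled FPKM in larvae, against 296, 247 and 41.8 in adults (log2 fold change 4.56 ± 0.82, adjusted p = 0.00694). Adult 3 was the lowest adult and larva 3 the highest larva, and it was not called on FPKM as deposited or with the equal sum. The prolyl isomerases FKBP8 (TRINITY_DN22758_c0_g1) and TRINITY_DN22861_c0_g1 help proline-containing chains to fold. FKBP8 had 423, 247 and 334 scaled FPKM in larvae, against 21.9, 22.9 and 28.0 in adults (log2 fold change 3.70 ± 0.27, adjusted p = 0.000939). The second isomerase had 128, 77.8 and 65.9 scaled FPKM in larvae, against 9.32, 7.75 and 6.09 in adults (log2 fold change 3.35 ± 0.32, adjusted p = 0.00142). Both were tight within each stage and apart between the stages. Protein disulfide-isomerase A5 (TRINITY_DN24568_c0_g1), a folding enzyme of the endoplasmic reticulum, was lower in larvae, with 0.196, 0.201 and 0.176 scaled FPKM in larvae, against 33.1, 14.5 and 27.7 in adults (log2 fold change -4.38 ± 0.39, adjusted p = 0.00124). The median of the 12 was 1.11, which is 1.36 above that of all unigenes tested. Without scaling 3 were called higher and 2 lower, with the equal sum 2 and 3, and without larva 1 5 and 1. Without adult 3 none of 11 was called at 0.01 and 4 were higher at an adjusted p under 0.05.

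Immune genes were higher in larvae in 6 of 16 members tested (37.5%, against 11.9% overall) and lower in none, with 2 lower at an unadjusted p under 0.05. Beta-1,3-glucan-binding proteins recognise the cell wall of fungi, and 3 of the 6 were such proteins. TRINITY_DN21252_c0_g1 had 827, 1217 and 800.2 scaled FPKM in larvae, against 11.3, 27.1 and 15.3 in adults (log2 fold change 5.71 ± 0.38, adjusted p = 0.000811). TRINITY_DN22783_c1_g1 had 277, 228 and 624 scaled FPKM in larvae, against 19.4, 4.23 and 15.1 in adults (log2 fold change 4.83 ± 0.64, adjusted p = 0.00296). Antichymotrypsin-2-like (TRINITY_DN22348_c0_g1), an inhibitor of serine proteases, had 473, 239.7 and 224 scaled FPKM in larvae, against 31.4, 12 and 16.1 in adults (log2 fold change 3.93 ± 0.46, adjusted p = 0.0022). No adult reached any larva in these 3, and Hayan-like, given among the proteases, is a member here too. The antibacterial peptide attacin-B-like (TRINITY_DN19113_c0_g2), named after its values were seen, had 833, 469.5 and 31857 scaled FPKM in larvae, against 7.84, 60.4 and 1.12 in adults. It was apart between the stages, yet the spread among the larvae left it outside the test (log2 fold change 7.79 ± 1.96, adjusted p = 0.0208). Over all 16 tested the median was 1.98, which is 2.22 above that of all unigenes tested and 1.71 to 2.14 above under the other scalings. Without scaling 3 were called higher and 2 lower, with the equal sum 3 and 3, and without larva 1 4 and 2. When adult 3 was left out, none was called at 0.01 and 5 were higher at an adjusted p under 0.05.

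**Figure D4:**
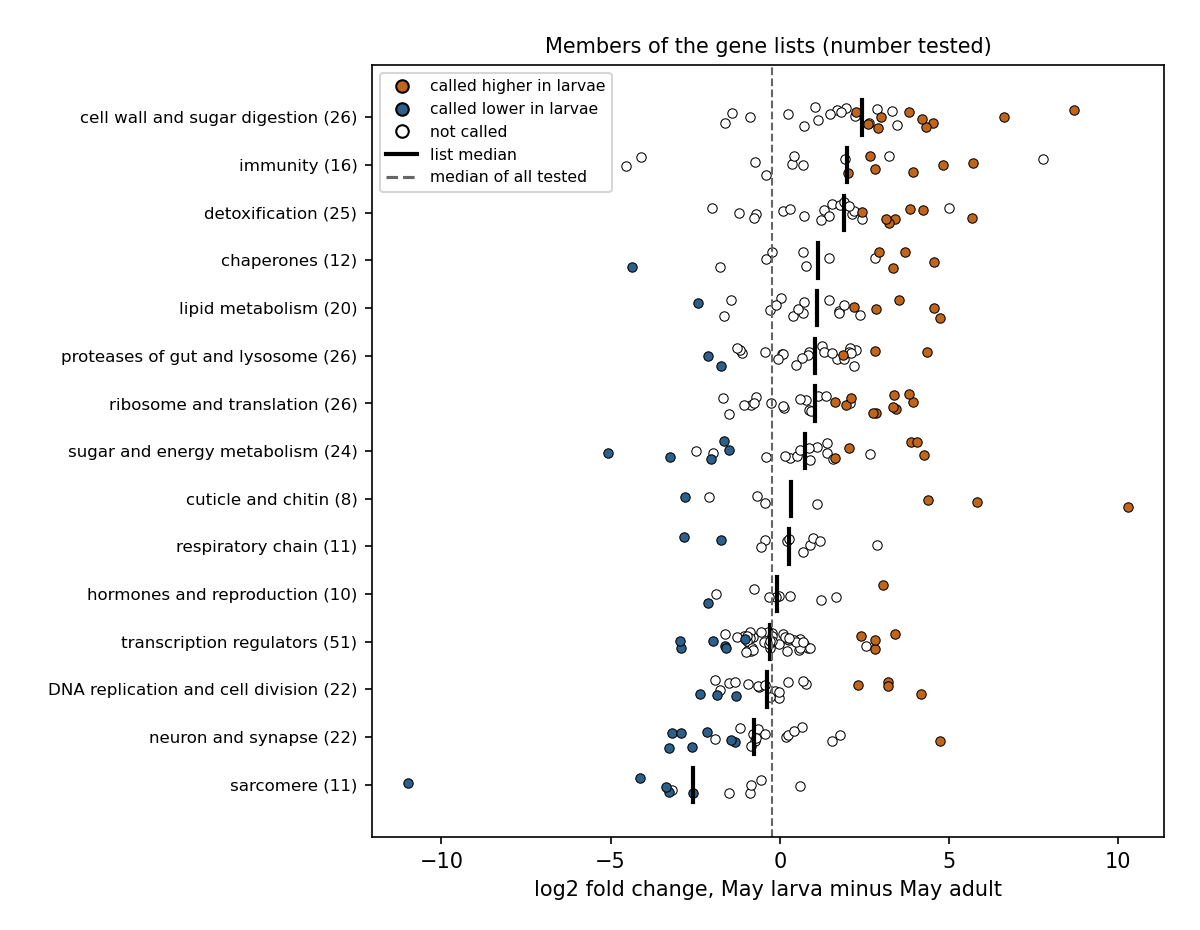
Log2 fold change, May larva minus May adult, of each member tested in 15 gene lists, with the number tested in brackets, the list median as a black bar and the median of all 14196 unigenes (-0.24) as a dashed line. The list of cell wall and sugar digestion has the highest median (2.44) and that of the sarcomere the lowest (-2.58).

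Muscle genes went the other way. Of 11 members of the sarcomere list tested, 5 were lower in larvae (45.5%, against 13.8% overall) and none higher, with 7 lower and 0 higher at an unadjusted p under 0.05. Muscle actin (TRINITY_DN22247_c2_g1), the thin filament protein, had 0.157, 0.241 and 0 scaled FPKM in larvae, against 2148, 1794 and 3103 in adults (log2 fold change -10.99 ± 0.27, adjusted p = 6.62e-05). This unigene was among the more abundant transcripts of each adult and at or near 0 in each larva. The study lists several actin unigenes, so that the values of this 1 do not show that larvae lack muscle actin. Myocyte-specific enhancer factor 2 (TRINITY_DN20336_c0_g1), the transcription factor MEF2 of muscle differentiation, had 3.81, 4.14 and 2.48 scaled FPKM in larvae, against 110.1, 42.5 and 94.0 in adults (log2 fold change -4.13 ± 0.42, adjusted p = 0.00159). The ryanodine receptor (TRINITY_DN27713_c9_g1), which releases calcium from the stores of the muscle fibre, had 0.452, 0.922 and 0.224 scaled FPKM in larvae, against 17.4, 12.9 and 13.5 in adults (log2 fold change -3.36 ± 0.33, adjusted p = 0.00149). The muscle calcium channel subunit alpha-1 (TRINITY_DN26185_c0_g1), which opens on depolarization of the fibre, had 0.295, 0.775 and 0.144 scaled FPKM in larvae, against 16.7, 7.52 and 15.3 in adults (log2 fold change -3.29 ± 0.42, adjusted p = 0.00269). All adults exceeded all larvae in the 4, and larva 3 was the lowest larva in each. The fifth called member, named after its value was seen, is the unc-89-like M-line protein, which organises the middle of the sarcomere, at -2.58. The 6 others, among them myosin heavy chain, troponin I and tropomyosin, had log2 fold changes of -3.19 to 0.59 and did not pass. Over all 11 tested the median was -2.58, and its difference from the median of all unigenes was -2.46 to -2.34 over the 4 scalings. In unscaled FPKM and with the equal sum none was called higher and 8 lower, and without larva 1 5 were lower. Without adult 3 only 5 members were tested, since the filter then asks for 3 of the 5 remaining libraries. None of these was called at 0.01 and 2 were lower at an adjusted p under 0.05.

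Nerve and synapse genes were lower in 7 of 22 members tested (31.8%, against 13.8% overall) and higher in 1 (4.55%, against 11.9%). The potassium channel subunit beta-2 (TRINITY_DN23825_c0_g6), which modulates channels that end the nerve impulse, had 0.216, 0.12 and 0.048 scaled FPKM in larvae, against 14.7, 6.27 and 10.1 in adults (log2 fold change -3.27 ± 0.39, adjusted p = 0.00224). The calcium channel subunit alpha-2/delta-3 (TRINITY_DN23276_c0_g1), a partner of presynaptic calcium channels, had 0.275, 0.214 and 0.112 scaled FPKM in larvae, against 13.6, 5.54 and 12.9 in adults (log2 fold change -3.20 ± 0.42, adjusted p = 0.00284). Kainate receptor 2 (TRINITY_DN25194_c0_g1), a receptor for glutamate, had 0, 0.134 and 0.192 scaled FPKM in larvae, against 10.1, 6.86 and 5.53 in adults (log2 fold change -2.91 ± 0.33, adjusted p = 0.002). Their levels were low in adults and close to 0 in larvae. The transporter matched to sodium-dependent dopamine transporter (TRINITY_DN23456_c0_g1) stood against the rest of the list, with 1024, 599 and 809 scaled FPKM in larvae, against 26.1, 38.0 and 24.5 in adults (log2 fold change 4.72 ± 0.31, adjusted p = 0.000806). Such transporters clear dopamine from the synapse, and the match is to a family whose members also carry amino acids. The 14 members that did not pass had log2 fold changes of -1.93 to 1.78. Over all 22 tested the median was -0.76, at a difference of -0.52 from that of all unigenes tested. In unscaled FPKM 1 was called higher and 12 lower, with the equal sum 1 and 15, and without larva 1 1 and 6. Without adult 3, 12 were tested, with none called at 0.01 and 1 higher and 1 lower at an adjusted p under 0.05.

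Genes of the senses and of hormones were mostly under the filter or did not pass. Of 9 members of smell and taste 2 were tested. Odorant binding protein 18 (TRINITY_DN17671_c0_g1), of a family that carries odours to receptors in the antenna, had 3.34, 6.30 and 3.88 scaled FPKM in larvae, against 7.31, 2.45 and 8.13 in adults, with overlapping groups. Protein takeout (TRINITY_DN20834_c1_g5), in Drosophila a carrier of small lipids linked to feeding, had 0, 0 and 0.192 scaled FPKM in larvae, against 10.7, 0.711 and 11.2 in adults, with adult 2 far below the other 2 adults (log2 fold change -2.56 ± 0.81, adjusted p = 0.044). Of 8 eye genes 4 were tested and 1 passed, as higher in larvae (25%, against 11.9% over all unigenes, on only 4 genes). This was retinol-binding protein pinta (TRINITY_DN25046_c0_g1), in Drosophila a carrier of vitamin A for the visual pigment, with 76.8, 86.4 and 63.3 scaled FPKM in larvae, against 8.82, 8.14 and 5.84 in adults (log2 fold change 3.16 ± 0.25, adjusted p = 0.00102). It was thus higher in every larva than in any adult. Pinta stayed called on FPKM as deposited (log2 fold change 1.85) and without larva 1 (3.26). With the equal sum it was not called (log2 fold change 1.27). Without adult 3 it was not called at 0.01 but had an adjusted p under 0.05 (limma, log2 fold change 2.55). None of the 12 genes of cilia and flagella reached the filter.

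Of 10 hormone and reproduction genes tested, 1 was higher and 1 lower in larvae, which is 10% each way beside 11.9% and 13.8% over all unigenes. The ecdysone receptor (TRINITY_DN27540_c0_g1), through which the moulting hormone acts, was lower in larvae, with 0.864, 0.454 and 0.85 scaled FPKM in larvae, against 6.44, 8.09 and 5.12 in adults (log2 fold change -2.12 ± 0.32, adjusted p = 0.00438). Gametogenetin-binding protein 2-like (TRINITY_DN24065_c1_g1), named for a partner protein of germ cells in mammals, was higher, with 48.7, 43.8 and 84.2 scaled FPKM in larvae, against 5.19, 6.59 and 6.18 in adults (log2 fold change 3.05 ± 0.31, adjusted p = 0.00159). Neither showed overlap between the stages. The vitellogenin receptor (TRINITY_DN25457_c0_g1), which takes up yolk protein into eggs and was one of the adult markers, had 8.61, 5.13 and 1.72 scaled FPKM in larvae, against 0.098, 19.9 and 8.03 in adults. The adults differed from each other more than the stages did, since adult 1 was near 0 and adult 2 the highest of the 6. In unscaled FPKM 1 member was called higher and 3 lower, with the equal sum 0 and 5, and without larva 1 1 and 1. When adult 3 was left out, none of 9 was called at 0.01 and 1 was higher at an adjusted p under 0.05.

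Of 22 genes of DNA replication and cell division tested, 4 were higher in larvae (18.2%) and 3 lower (13.6%), shares near the 11.9% and 13.8% over all unigenes tested. SLD5 (TRINITY_DN21722_c0_g1), a subunit of the GINS complex that drives the replicative helicase, had 44.1, 38.1 and 46.5 scaled FPKM in larvae, against 1.61, 1.39 and 1.36 in adults (log2 fold change 4.16 ± 0.23, adjusted p = 0.000785). Flap endonuclease 1 (TRINITY_DN23056_c0_g2), which trims the fragments of the lagging strand, had 67.6, 47.9 and 68.3 scaled FPKM in larvae, against 4.82, 5.42 and 7.17 in adults (log2 fold change 3.19 ± 0.26, adjusted p = 0.00108). Protein peanut (TRINITY_DN22523_c2_g1), a septin of the cleavage furrow, had 77.9, 57.3 and 83.5 scaled FPKM in larvae, against 7.83, 6.29 and 6.90 in adults (log2 fold change 3.19 ± 0.24, adjusted p = 0.000939). In each of the 3 the larvae agreed closely and lay far above the adults. Katanin p80 (TRINITY_DN26521_c0_g2), a subunit of an enzyme that severs microtubules, was lower in larvae, with 0.393, 0.281 and 0.401 scaled FPKM in larvae, against 4.54, 7.07 and 6.33 in adults (log2 fold change -2.35 ± 0.30, adjusted p = 0.00271). Over all 22 tested the median was -0.37, at a difference of -0.13 from that of all unigenes tested. In unscaled FPKM 3 were called higher and 8 lower, with the equal sum 3 and 11, and without larva 1 4 and 1. When adult 3 was left out, none of 15 was called at 0.01, and 4 were higher and 1 lower at an adjusted p under 0.05.

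Among regulators of transcription, 4 of 51 members tested were higher in larvae (7.84%) and 6 lower (11.8%), both below the 11.9% and 13.8% over all unigenes. MEF2, nuclear factor 1 X-type and hepatic leukemia factor are transcription factors lower in larvae that this list does not hold. Their log2 fold changes were -4.13, -4.57 and -3.59. The shares thus describe the list and not all transcription factors. Transcription factor Ken (TRINITY_DN21390_c1_g1), in Drosophila a repressor, had 53.2, 48.7 and 32.9 scaled FPKM in larvae, against 4.09, 3.17 and 2.56 in adults (log2 fold change 3.41 ± 0.29, adjusted p = 0.00116). Zinc finger protein ZPR1 (TRINITY_DN25050_c0_g1) had 209.6, 198 and 233 scaled FPKM in larvae, against 26.0, 46.3 and 20.9 in adults (log2 fold change 2.82 ± 0.33, adjusted p = 0.00216). A runt-related factor (TRINITY_DN24512_c0_g1), of a family that directs cell fate, was lower in larvae, with 2.34, 0 and 1.86 scaled FPKM in larvae, against 11.5, 17.1 and 18.8 in adults (log2 fold change -2.96 ± 0.55, adjusted p = 0.00769). A zinc finger protein match (TRINITY_DN20974_c2_g1) was lower as well, with 0.295, 2.25 and 0.737 scaled FPKM in larvae, against 13.5, 16.4 and 11.7 in adults (log2 fold change -2.92 ± 0.43, adjusted p = 0.00402). None of the 4 overlapped between stages. The list's median was -0.29, at a difference of -0.05 from that of all unigenes. In unscaled FPKM 2 were called higher and 16 lower, with the equal sum 1 and 28, and without larva 1 4 and 2. When adult 3 was left out, none of 40 was called at 0.01, and 3 were higher and 3 lower at an adjusted p under 0.05.

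Several of the largest differences among named unigenes lay outside the lists. Higher in larvae were 8 of them. Venom acid phosphatase Acph-1 (TRINITY_DN19074_c0_g1), a secreted phosphatase, had 3639, 1701 and 6366 scaled FPKM in larvae, against 12.7, 68.9 and 24.9 in adults (log2 fold change 6.86 ± 0.75, adjusted p = 0.00187). A chitooligosaccharidolytic beta-N-acetylglucosaminidase (TRINITY_DN20829_c0_g1), which cuts the short chains left by chitinase at the moult, had 112, 63.3 and 602 scaled FPKM in larvae, against 1.61, 0.395 and 0.149 in adults (log2 fold change 6.67 ± 0.87, adjusted p = 0.00284). Soma ferritin-like (TRINITY_DN27039_c1_g1), an iron store, had 841, 285 and 95.2 scaled FPKM in larvae, against 3.88, 5.93 and 4.5 in adults (log2 fold change 5.64 ± 0.77, adjusted p = 0.00319). In these 3 the larvae were spread over several-fold, the highest being a different larva for the ferritin than for the other 2, and the adults were still all lower. Retinol dehydrogenase 14 (TRINITY_DN21216_c0_g1) had 88.2, 79.6 and 92.0 scaled FPKM in larvae, against 0.411, 0.516 and 0.194 in adults (log2 fold change 6.0 ± 0.24, adjusted p = 0.000271). Neprilysin-11 (TRINITY_DN26021_c3_g1), a peptidase of the cell surface that cleaves peptide hormones, had 446, 388 and 350.3 scaled FPKM in larvae, against 9.90, 7.67 and 7.51 in adults (log2 fold change 5.4 ± 0.21, adjusted p = 0.000271). Glucose dehydrogenase (TRINITY_DN19851_c0_g1), an oxidase of sugars, had 1637, 1810.4 and 1777 scaled FPKM in larvae, against 82.3, 27.3 and 43.6 in adults (log2 fold change 5.20 ± 0.43, adjusted p = 0.00108). In these 3 the larvae lay close together and far above the adults. Innexin inx1 (TRINITY_DN23113_c0_g2), a gap junction protein, had 1984, 1129 and 1279 scaled FPKM in larvae, against 37.9, 78.1 and 30.2 in adults (log2 fold change 4.96 ± 0.44, adjusted p = 0.00124). N-acetylneuraminate lyase (TRINITY_DN18999_c0_g1) had 1191, 975 and 278 scaled FPKM in larvae, against 26.5, 26.6 and 17.2 in adults (log2 fold change 4.84 ± 0.59, adjusted p = 0.00241), with larva 3 well below the others.

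Among the 15 largest differences downward, 11 lay outside the lists. Rab-23 (TRINITY_DN24882_c0_g1), a small GTPase of membrane traffic, had 0.766, 1.36 and 0.16 scaled FPKM in larvae, against 69.5, 114 and 88.6 in adults (log2 fold change -5.73 ± 0.36, adjusted p = 0.000798). Rap1 (TRINITY_DN21883_c1_g1), a small GTPase of cell adhesion, had 1.16, 0.949 and 1.27 scaled FPKM in larvae, against 26.6, 19.3 and 21.3 in adults (log2 fold change -3.45 ± 0.28, adjusted p = 0.00107). The G protein subunit gamma-e (TRINITY_DN23556_c0_g1), known from the signalling of Drosophila photoreceptors, had 1.81, 1.79 and 1.14 scaled FPKM in larvae, against 45.3, 27.5 and 44.0 in adults (log2 fold change -3.93 ± 0.31, adjusted p = 0.00102). All 3 signalling proteins were lower in every larva than in any adult. Nuclear factor 1 X-type (TRINITY_DN25084_c1_g3), a transcription factor, had 0.511, 0.468 and 0.24 scaled FPKM in larvae, against 25.0, 44.6 and 30.2 in adults (log2 fold change -4.57 ± 0.33, adjusted p = 0.000914). Hepatic leukemia factor (TRINITY_DN25024_c0_g1), a bZIP factor of the group that holds the clock gene Pdp1 of Drosophila, had 0.845, 0.882 and 0.962 scaled FPKM in larvae, against 20.7, 23.3 and 21.3 in adults (log2 fold change -3.59 ± 0.26, adjusted p = 0.000917). RNA-binding protein 38 (TRINITY_DN23212_c0_g5) had 0.236, 0.588 and 0.048 scaled FPKM in larvae, against 16.5, 17.4 and 25.3 in adults (log2 fold change -4.00 ± 0.34, adjusted p = 0.00117). The 2 transcription factors and the RNA-binding protein were under 1 scaled FPKM in every larva. The other 5 were transmembrane protein 35A (TRINITY_DN21631_c1_g1), pyrroline-5-carboxylate reductase 3 (TRINITY_DN24618_c1_g2), a proline-making enzyme, adenylosuccinate synthetase (TRINITY_DN23265_c0_g1), of purine synthesis, cytochrome c-type heme lyase (TRINITY_DN24623_c0_g1), which attaches heme to cytochrome c, and syndecan-2 (TRINITY_DN22588_c1_g1), a proteoglycan of the cell surface. The reductase was listed at 0 in all 3 larvae, against 12.7, 12.4 and 13.7 scaled FPKM in adults. The synthetase had 1.61, 2.78 and 1.52 scaled FPKM in larvae, against 33.8, 36.3 and 34.8 in adults (log2 fold change -3.62 ± 0.27, adjusted p = 0.000939). The log2 fold changes of the other 3 were -3.94, -3.59 and -3.52, and adults were above larvae in each.

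A whole wild insect can carry other organisms, and unigenes with other best matches were counted for this. Of 13 unigenes tested whose best match is a nematode, none was called higher or lower by limma at 0.01, and 0 were higher and 1 lower at an unadjusted p under 0.05. Unigenes with a nematode match took 0.142%, 0.000626% and 0.248% of the FPKM of the larvae, against 0.0247%, 0.0515% and 0.0104% of the adults (exact permutation test, two-sided, p = 0.4). The study reports that it removed nematode sequences and then repeated its annotation, and most unigenes tested have no match here. Neither this count nor these shares can thus measure how much RNA of other organisms a library held. Of 8 with a vertebrate as best match, 2 were called higher and 2 lower, which is 25% each way beside 11.9% and 13.8% over all unigenes tested, on only 8 unigenes. Most calls had no match in the tables used here. Of the unigenes tested, 1603 were in the annotation tables used here, and 269 of these were called higher and 216 lower, beside 11.9% higher and 13.8% lower over all 14196. The other 12593 were in neither table, and 1417 of them were called higher and 1737 lower. The lists above draw on the annotated part alone, and within it on beetle matches, of which 258 of 1442 tested were called higher and 173 lower. Part of the annotated unigenes was chosen by the study for differences between January and May on these same libraries.

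The same contrast of stages in January was set beside the May one. It rests on 3 January larvae and 3 January adults and was tested over 18917 unigenes, of which 3 were called higher (0.0159%) and 5 lower (0.0264%), or 0.0423% in either direction, while 3422 had an unadjusted p under 0.05. Without January larva 3 it gave 104 higher and 3396 lower, so that this number depended on that library. The difference between the months was therefore tested itself, as an interaction over all 12 libraries. In 492 of 23348 unigenes (2.11%) the stage difference was higher in May, and in 336 (1.44%) lower, or 3.55% in either direction. Without May adult 3 the numbers were 32 and 16, without May adult 1 122 and 64, and without May larva 1 143 and 97. Of the 1686 unigenes higher in May larvae, 453 differed between the months, as did 287 of the 1953 lower ones. These unigenes were chosen on May values, which enter the interaction too, so that these 2 counts are no test. Of those higher in May larvae 1629 were tested in January, where 1143 had the same direction, and their median log2 fold change was 2.87 in May and 0.40 in January. Of those lower in May larvae 1587 were tested in January, where 1071 had the same direction, and their median was -2.24 in May and -0.30 in January. Over all 18917 unigenes tested in January the median was -0.38. The lower set thus did not lie below unigenes at large in January, and its count in the same direction shows no carried-over stage difference. The January median of the higher set lay above that of all.

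The members described above differed in this respect. Larval cuticle protein LCP-17 had 24.3, 81.4 and 37.4 scaled FPKM in January larvae, against 0.931, 1.28 and 2.07 in January adults, and its stage difference was not shown to differ between the months (interaction 1.70, adjusted p = 0.235). Fatty acyl-CoA reductase 1 had 74.8, 11.3 and 35.0 in January larvae, against 1.11, 2.07 and 2.5 in January adults (interaction 1.27, adjusted p = 0.341). In both genes every January larva lay above every January adult. The FLO11-like chitin-binding unigene had 3.76, 70.8 and 8.57 in January larvae, against 8.54, 47.4 and 41.4 in January adults, so that the stages overlapped there (interaction 11.35 ± 1.39, SE, adjusted p = 0.00196). Myrosinase TRINITY_DN22028_c0_g1 had 0.488, 16.1 and 5.83 in January larvae, against 7.85, 21.3 and 7.57 in January adults (interaction 9.99, adjusted p = 0.00197). Endoglucanase had 3.68, 64.9 and 2.16 in January larvae, against 3.97, 16.5 and 28.3 in January adults, and its interaction of 5.01 did not pass (adjusted p = 0.0563). Among the digestive enzymes the stage difference was thus larger in May for some and not shown to differ for others. Ribosomal protein L8 had 824, 436 and 653 in January larvae, against 477, 349 and 674 in January adults (interaction 3.59, adjusted p = 0.00297). Muscle actin had 0.189, 0.233 and 0.144 in January larvae, against 150.4, 100.01 and 21.9 in January adults, a January difference that did not pass the test (log2 fold change -6.18, adjusted p = 0.0539), and the stage difference was larger in May (interaction -5.42, adjusted p = 0.00369). MEF2 had 20.6, 37.0 and 21.3 in January larvae, against 20.9, 28.4 and 30.7 in January adults (interaction -4.14, adjusted p = 0.00294). The January values here are scaled over all 12 libraries.

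**Figure D5:**
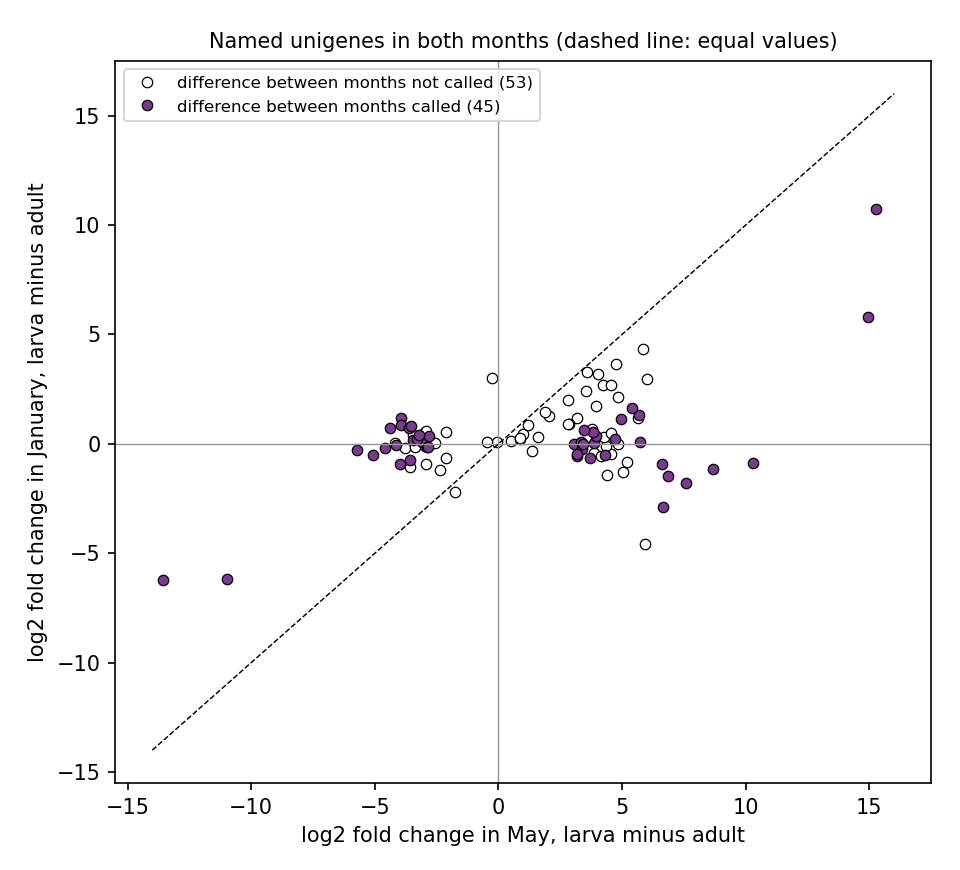
Log2 fold change, larva minus adult, of 98 named unigenes in May (horizontal axis) and in January (vertical axis), each from the fit of its own 6 libraries, with filled points where the difference between the months was called (45) and open points where it was not (53). Most points lie nearer to 0 in January than in May. Since the unigenes were mostly named for a large May difference, this holds no information on the months by itself.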

How the data were processed

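Whole May larvae and whole May adults, 3 libraries each, were compared by RNA-seq. Stage and the names "normal" and "cold" come from the sample records, and the months from the study's methods. The authors assembled the reads with Trinity, placed them on the unigenes with Bowtie2 2.3.5.1 and quantified them with RSEM 1.2.31, and the values they deposited are FPKM. No counts were used, so the depth behind a value is unknown. The sources used here state no use of strand in the counting, so that overlapping and antisense genes cannot be told apart.

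FPKM were divided by median-of-ratios factors over the 6 libraries and tested as log2(scaled FPKM + 1) with limma 3.58.1 (trend option) in R 4.3.3, larva minus adult, two-sided, with Benjamini-Hochberg adjustment over all 14196 unigenes. The January contrast and, over all 12 libraries, the interaction were fitted alike. The design also allowed for counts, and the form for FPKM was used. On simulated data for the May comparison, 109 to 118 of 200 unigenes changed by a log2 of 4 were recovered with at most 4 false calls, and 0 of 200 changed by a log2 of 2. Only 200 unigenes were changed there, while 7622 of the 14196 real ones had an unadjusted p under 0.05 (limma). The adjustment was thus stricter in the simulation than in the reported test. That test did call some changes of a smaller size, such as carboxypeptidase Q at 1.87. The simulated numbers therefore do not give the recovery or the false calls of the reported test. Real differences of that smaller size may still be missed. Figures were drawn with matplotlib 3.10.9 in Python 3.11.15.

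Names come from parts of the study's tables, 1940 unigenes of its Nr annotation, 653 of its list of seasonal differences and 59 in both. The seasonal list was chosen by the study on these libraries. Named are the 15 unigenes with the largest change in each direction (called, without overlap, named beetle match), up to 4 members of each of 18 lists, the 5 most abundant of each stage and the 15 with primers. The members, lists and rules were chosen with earlier results of these data known. Alternatives covered scaling, added value, filter, threshold, the shared unigenes, the replicate number and each library left out. Pairs of unigenes of 1 assembly cluster may share reads. Each library is 1 insect per the study's methods, and p-values measure only the spread between these insects.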

Additional observations from a re-analysis of the deposited data

Results flagged for a closer look

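The stage difference of 47 named unigenes differed between May and January, by an interaction test with limma over all 12 libraries (adjusted p under 0.01). Values below are the larva minus adult log2 fold change in May minus that in January. Most of these unigenes were named for a large change in May, so their number says nothing about the months. The difference depended on the libraries: without May adult 3 only 32 unigenes of all tested were called higher and 16 lower, against 492 and 336 with it.

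Among genes higher in May larvae that have a named match, the widest differences were those of the FLO11-like chitin-binding unigene at 11.35, the myrosinases TRINITY_DN22028_c0_g1 at 9.99 and TRINITY_DN22028_c0_g3 at 7.77, beta-N-acetylglucosaminidase at 9.78 and venom acid phosphatase at 8.35. In all 5 the January value was below 0, at -2.90 to -0.86, and no January value of these passed the test. Of the unnamed larval unigenes TRINITY_DN22439_c0_g5 stood at 9.42, TRINITY_DN20229_c0_g1 at 9.28 and TRINITY_DN18275_c0_g1 at 5.23, and the last 2 had January log2 fold changes of 5.81 (adjusted p = 0.0849) and 10.75 (adjusted p = 0.00259). Beta-1,3-glucan-binding protein TRINITY_DN21252_c0_g1 stood at 5.65, beta-galactosidase TRINITY_DN24586_c0_g3 at 4.86, the dopamine transporter match at 4.53, UDP-glucuronosyltransferase 1-7C at 4.45, the liver carboxylesterase match at 3.86, 6-phosphogluconate dehydrogenase at 3.86, neprilysin-11 at 3.84 and innexin inx1 at 3.84. The others were FKBP8 at 4.40, protein peanut at 3.79, flap endonuclease 1 at 3.73, nucleolar protein 16 at 3.65, ribosomal proteins L8 at 3.59, L23a at 3.31 and L13 at 2.85, transcription factor Ken at 3.50, the prolyl isomerase TRINITY_DN22861_c0_g1 at 3.32 and gametogenetin-binding protein 2-like at 3.10.

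For genes lower in May larvae, TRINITY_DN22834_c1_g1 stood at -7.78, a size that depends on the added 1 because its May larvae are listed at 0. Rab-23 stood at -5.67, muscle actin at -5.42, transmembrane protein 35A at -5.38 and protein disulfide-isomerase A5 at -5.37. The G protein subunit gamma-e stood at -4.89, isocitrate dehydrogenase subunit alpha at -4.65, nuclear factor 1 X-type at -4.64, adenylosuccinate synthetase at -4.44, syndecan-2 at -4.37 and MEF2 at -4.14. The calcium channel subunit alpha-2/delta-3 stood at -3.83, Rap1 at -3.76, the muscle calcium channel subunit at -3.73, the potassium channel subunit beta-2 at -3.49, TRINITY_DN21051_c0_g1 at -3.40, RNA-binding protein 38 at -3.37, the putative glutamate synthase TRINITY_DN27207_c0_g1 at -3.25, kainate receptor 2 at -3.06, hepatic leukemia factor at -3.03 and complex I subunit 12 at -2.69. In January muscle actin had a log2 fold change of -6.18 (adjusted p = 0.0539) and TRINITY_DN22834_c1_g1 of -6.23 (adjusted p = 0.0756), and neither passed the test.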

How the results depend on the processing

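Scaling moved the balance of higher and lower calls. Without scaling 778 unigenes were higher and 4675 lower in May, the interaction gave 89 and 680, and 1596 had larvae above adults without overlap. With the equal sum it was 540 and 6050, the interaction gave 100 and 1684, and 1113 and 8086 did not overlap. Glyceraldehyde-3-phosphate dehydrogenase 2 then changed sign to -1.47 and carboxypeptidase Q to -0.07. Without the filter on low values the May counts were 999 and 566, the interaction's 116 and 72, and 9675 unigenes had larvae below adults. With 1 FPKM in at least 2 libraries, 1162 were lower in May and the interaction gave 284 and 178. At an adjusted p under 0.05 the May counts were 2545 and 3720 and the interaction's 1354 and 1496, and with an added 0.1 the interaction's lower count was 587. The other settings, factors from D. ponderosae matches, an added 0.5, the shared unigenes kept, no minimum fold change, robust empirical Bayes and all 12 libraries in 1 fit, moved no May count by more than 1.5 times.

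Leaving out each library in turn gave 13 to 1380 calls higher and 0 to 1527 lower in May, with 3814 to 7751 unigenes at an unadjusted p under 0.05 (limma). The interaction gave 32 to 420 and 16 to 329. January, chosen after the values were seen, gave 0 to 104 and 0 to 3396, with 1149 to 5798 at an unadjusted p under 0.05. Unigenes without overlap numbered 2646 to 3601 with larvae above and 2830 to 5645 with larvae below. Without May adult 3, at an adjusted p under 0.05, also chosen after the values were seen, 1233 were higher and 809 lower. Where a stage keeps 2 insects, its spread is pooled with that of the other.

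With the replicate number as a block, 255 unigenes were higher and 51 lower in May, and the interaction gave 125 and 72. Of the 3639 calls 304 were kept, and 30 of the 83 called named unigenes. The insects share only a number: deviations of same-numbered larvae and adults correlated at 0.221, -0.197 and 0.454, and larvae 1 and 2 correlated best with adults 2 and 3, at 0.321 and 0.483.

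Depth is not known from FPKM, so that counting error could not be set beside any value, and the spread among 3 insects is the only error given.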

Other observations

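Some unigenes were read in only 1 stage. Deposited FPKM were at least 10 in all 3 insects of a stage and under 0.1 in all 3 of the other for 71 unigenes of adults and 8 of larvae, out of 54133 considered, a rule chosen after the values were seen. The most abundant larval one, TRINITY_DN12933_c0_g1, had 1694.14, 1620.73 and 4767.36 FPKM in larvae and is listed at 0 in every adult. Among the adult ones, TRINITY_DN21283_c0_g2 is listed at 0 in every larva and had 1043.94, 1449.17 and 1017.65 FPKM in adults. TRINITY_DN17115_c0_g1 is likewise listed at 0 in larvae, with 22134.75, 1225.58 and 18710.36 FPKM in adults, where adult 2 is far below the other 2. Of these 79 unigenes 8 are in the annotation tables used, 1 of them larval, and the most abundant have no match there.

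Adult 2 was low in a number of adult unigenes. In 7 of the 71 it was under 0.2 of the lower of the other 2 adults, against 0 of 71 for adult 1 and 1 for adult 3. Exoglucanase B TRINITY_DN23919_c0_g1, a cell wall enzyme named after its values were seen, had 34.2, 39.6 and 39.7 scaled FPKM in larvae, against 344, 5.81 and 467 in adults. Adult 1 and adult 3 thus lay above the larvae and adult 2 below them.

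C-type lectin matches, which bind sugars on microbes, stood on the adult side of the immune list without passing the test, and were named after their values were seen. Collectin-10-like (TRINITY_DN18079_c0_g1) had 50.8, 0.348 and 3.65 scaled FPKM in larvae, against 115, 148 and 246 in adults (log2 fold change -4.56 ± 1.31, adjusted p = 0.0323). Tetranectin-like protein (TRINITY_DN17570_c0_g1) had 85.5, 0.762 and 17.8 in larvae, against 208, 195 and 357 in adults (log2 fold change -4.11 ± 1.38, adjusted p = 0.0525). Larva 1 was the highest larva in both, and without it both were called lower in larvae (adjusted p = 0.00267 and 0.00882).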
